A study of Mus musculus with 20 samples.

Results

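The genes described here are those of the adrenomedullin and calcitonin peptide family: the peptide genes Adm, Adm2, Calca and Calcb, the receptor genes Calcrl and Calcr, and the receptor activity-modifying proteins (RAMPs) Ramp1, Ramp2 and Ramp3. They were selected by gene symbol and make up 9 of the 45777 genes in the expression table. Adrenomedullin, encoded by Adm, and the calcitonin gene-related peptide (CGRP) dilate blood vessels. Both act through the calcitonin receptor-like receptor, encoded by Calcrl, which needs a RAMP partner to reach the cell surface. The partner sets the ligand: with RAMP1 the complex is a CGRP receptor, and with RAMP2 or RAMP3 it is an adrenomedullin receptor. In the uterus, adrenomedullin is known for its part in blood vessel growth and in preparing the endometrium for the embryo.

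Uterine tissue of wild-type B6D2F1 females, 8 to 12 weeks old, was collected at 18:00 on day 3.5 after mating, where day 0.5 is the morning of the vaginal plug. The 5 control mice received no treatment. The 5 IF mice, the model of implantation failure, received 3 mg/kg RU486 under the skin on the morning of day 3.5. RU486 (mifepristone) blocks the progesterone receptor and also the glucocorticoid receptor. The 5 PBMC mice and the 5 PBMC-hCG mice received the same RU486 dose, and on day 1.5 each uterine horn had been given 50000 peripheral blood mononuclear cells (PBMCs) from other mice, cultured without or with 5 IU/mL human chorionic gonadotropin (hCG). Cells, carrier fluid and the intrauterine procedure came together in both PBMC groups, so their parts cannot be told apart against the IF group here.

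Expression was measured by RNA-seq in TPM, a share of the library scaled for gene length, so levels of different genes can be set side by side. Of the 9 genes, 6 were above 0 TPM in all 20 libraries and were tested. The test was limma on log2(TPM + 0.1) over 18706 genes with Benjamini-Hochberg adjustment, and a gene was called at an adjusted p under 0.05. A fold rule, a fold change of at least 2 with a raw p under 0.05, was read beside it. Fold changes are on the log2(TPM + 0.1) scale with the standard error (SE), and levels are the mean ± SD of 5 mice. Whole uterine tissue was used, so fewer cells of a type and less RNA per cell cannot be told apart for any gene below. One control library, mouse 2, stood apart. Its median correlation with its own group was 0.963, against 0.98 to 0.99 in the other libraries, and it held 22190 TPM of the ribosomal locus Rn18s-rs5, where the others held 5061 to 15340 TPM. Many values of the family genes are also given without it, but not every value that moves with it.

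The sequences before the starts of the genes that moved most are shown first, so that the reader can see where each gene begins and what stands there. They come from the RefSeq promoter windows on GRCm38.p6, and all 3 genes lie on the plus strand. Capitals mark the GC box, GGGCGG or its reverse complement. Adm lies at chr7:110627657-110629820, Ramp1 at chr1:91179822-91225196 and Ramp3 at chr11:6658506-6677478. The stretches are chr7:110627407-110627656, chr1:91179572-91179821 and chr11:6658283-6658505, in that order, and the last ends before the first exon of the more upstream Ramp3 transcript.
Adm: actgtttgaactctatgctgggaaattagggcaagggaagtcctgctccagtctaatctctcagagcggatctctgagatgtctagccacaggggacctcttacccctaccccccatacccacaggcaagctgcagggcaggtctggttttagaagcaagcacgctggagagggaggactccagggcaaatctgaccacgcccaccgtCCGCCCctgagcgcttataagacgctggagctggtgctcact
Ramp1: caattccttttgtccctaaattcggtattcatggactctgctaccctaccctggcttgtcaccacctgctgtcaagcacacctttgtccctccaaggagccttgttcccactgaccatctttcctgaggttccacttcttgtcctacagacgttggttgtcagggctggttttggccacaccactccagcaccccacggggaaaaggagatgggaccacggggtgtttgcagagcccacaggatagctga
Ramp3: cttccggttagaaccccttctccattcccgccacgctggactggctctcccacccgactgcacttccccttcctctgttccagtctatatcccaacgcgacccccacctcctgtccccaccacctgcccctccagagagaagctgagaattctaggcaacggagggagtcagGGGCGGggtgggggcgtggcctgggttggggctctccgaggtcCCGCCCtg

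The Ramp3 window of 250 bases held 3 GC boxes, of which 2 are in the stretch shown, and 65.2% of its bases were G or C. The Adm window held 1 GC box at 56.8% G or C, and the Ramp1 window held no searched motif at 54.0%. Over all 32851 RefSeq windows of this length, 32.7% held a GC box, and the median G or C share was 52.4%. A further 6 motifs were searched on both strands, and none of them was found in the windows of the 7 family members that have one. They were the estrogen response element (GGTCA and TGACC with 3 bases between, in 0.0639% of all windows) and the progesterone and glucocorticoid response element (AGAACA and TGTTCT with 3 bases between, in 0.00913%). The others were the cAMP response element TGACGTCA (1.55%), the AP-1 site TGANTCA (6.75%), the hypoxia response core ACGTG (16.6%) and the TATA box TATAAA (12.4%). The missing matches say only that these letters are not in these windows. Ramp2 and Calcb had no window.

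The study also designed a PCR assay for Ramp3, whose primers show which part of the transcript it reads.
Ramp3 forward primer: agaaggtggctgtctggaagtg
Ramp3 reverse primer: tctccatctcggtgcagttagtg
In an annotated Ramp3 transcript of 1233 bases and 3 exons, the pair spans 84 bases, positions 195 to 278. The forward primer lies in exon 2 and the reverse primer in exon 3, so the product crosses an intron within chr11:6674850-6676520. The pair also matches an annotated Ramp3 transcript of 1333 bases and 4 exons, at positions 298 to 381 in its exons 3 and 4. The study reported from PCR that Ramp3, among other estrogen-activated genes, was rescued in mice given PBMCs, most in the PBMC-hCG group. The PCR measurements were not analysed here.

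RU486 was followed by higher Adm, Ramp2 and Ramp3 and lower Ramp1 in the IF uteri, while the Calcrl level differed by less than the spread between mice. Against control, Ramp3 was 9.18-fold higher, Adm 3.87-fold higher and Ramp2 1.22-fold higher, and Ramp1 was 2.97-fold lower. Of the 6 tested genes, 4 were called, 3 higher and 1 lower, where 21.9% of all tested genes were called in this comparison. By the fold rule 3 of the 6 passed, where 4.03% of all tested genes did. All 4 calls held with each of the 10 mice left out in turn.

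Adm, on chromosome 7, encodes the precursor of adrenomedullin. The control mice had 15.1, 24.5, 18.1, 16.5 and 14.3 TPM. The IF mice had 47.5, 53.2, 103.4, 67.3 and 79.7 TPM. Every IF mouse lay above every control mouse, and the IF group spread more widely, with means of 17.7 ± 4.07 TPM in control and 70.2 ± 22.4 TPM in IF. The log2 fold change was 1.95 with an SE of 0.22 (adjusted p = 5.83e-06). Without control mouse 2, the highest of its group, it was 2.08. The annotation places an antisense gene, Gm28863, over 2160 bases of the Adm locus, and the use of strand in counting is not given in the sources used here, so reads of the pair cannot be told apart with certainty.

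Adm in the PBMC mice was 38.7, 46.8, 43.1, 44.9 and 77.3 TPM, with a mean of 50.2 ± 15.5 TPM. In the PBMC-hCG mice it was 59.0, 48.9, 36.2, 68.7 and 58.7 TPM, with a mean of 54.3 ± 12.3 TPM. Both groups overlapped the IF range from below and stayed clear of the control range. The fitted log2 difference from IF was -0.47 for PBMC (adjusted p = 0.730 by limma) and -0.35 for PBMC-hCG (95% interval -0.81 to 0.12, adjusted p = 0.272 by limma). Neither was called. Against control, Adm was called higher in both, by 1.48 (adjusted p = 0.000126) and 1.61 (adjusted p = 4.22e-05) on the log2 scale by limma.

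The other peptide genes were low. Calca yields calcitonin or CGRP by alternative splicing, and the gene-level TPM cannot separate the products. Calca had 11.6, 2.76, 6.12, 9.64 and 2.98 TPM in control mice and 8.18, 5.27, 3.52, 5.14 and 2.34 TPM in IF mice. It ranged from 2.80 to 5.92 TPM in PBMC mice and from 1.95 to 9.17 TPM in PBMC-hCG mice. All 4 groups overlapped, the group means lay between 4.57 and 6.62 TPM, and Calca was called in no comparison. The IF against control difference was -0.32 on the log2 scale (95% interval -1.21 to 0.57), so an interval this wide covers a fold of over 2 downward.

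Calcb, the second CGRP gene and a close relative of Calca that lies 79.6 kb away on chromosome 7, was above 0 TPM in 8 of 20 libraries, with 0.189 TPM in control mouse 1 as the highest value. Adm2, which encodes intermedin, another ligand of the Calcrl complexes, was above 0 in 6 libraries. It reached 0.567 TPM in IF mouse 5 and was listed at 0 in all 5 PBMC-hCG mice. Since CGRP is found mainly in sensory nerve fibers, nerve markers were read beside Calca. How far RNA of uterine tissue reports such fibers or their CGRP was not tested. Of the 8 markers only 2 were above 0 in all libraries. By limma neither was called or had a raw p under 0.05 in IF against control. The summed level of the 8 ran from 4.25 to 11.1 TPM over the 20 mice. The sensory channel gene Scn10a was listed at 0 in the control, IF and PBMC-hCG groups. Tac1, also untested, averaged 0.0699 TPM in control, 1.06 in IF, 1.26 in PBMC and 0.354 in PBMC-hCG mice. Its lowest value was 0 in each group. Elavl4, untested as well, averaged 0.132 TPM in control and 0.0559 in IF mice.

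**Figure D1:**
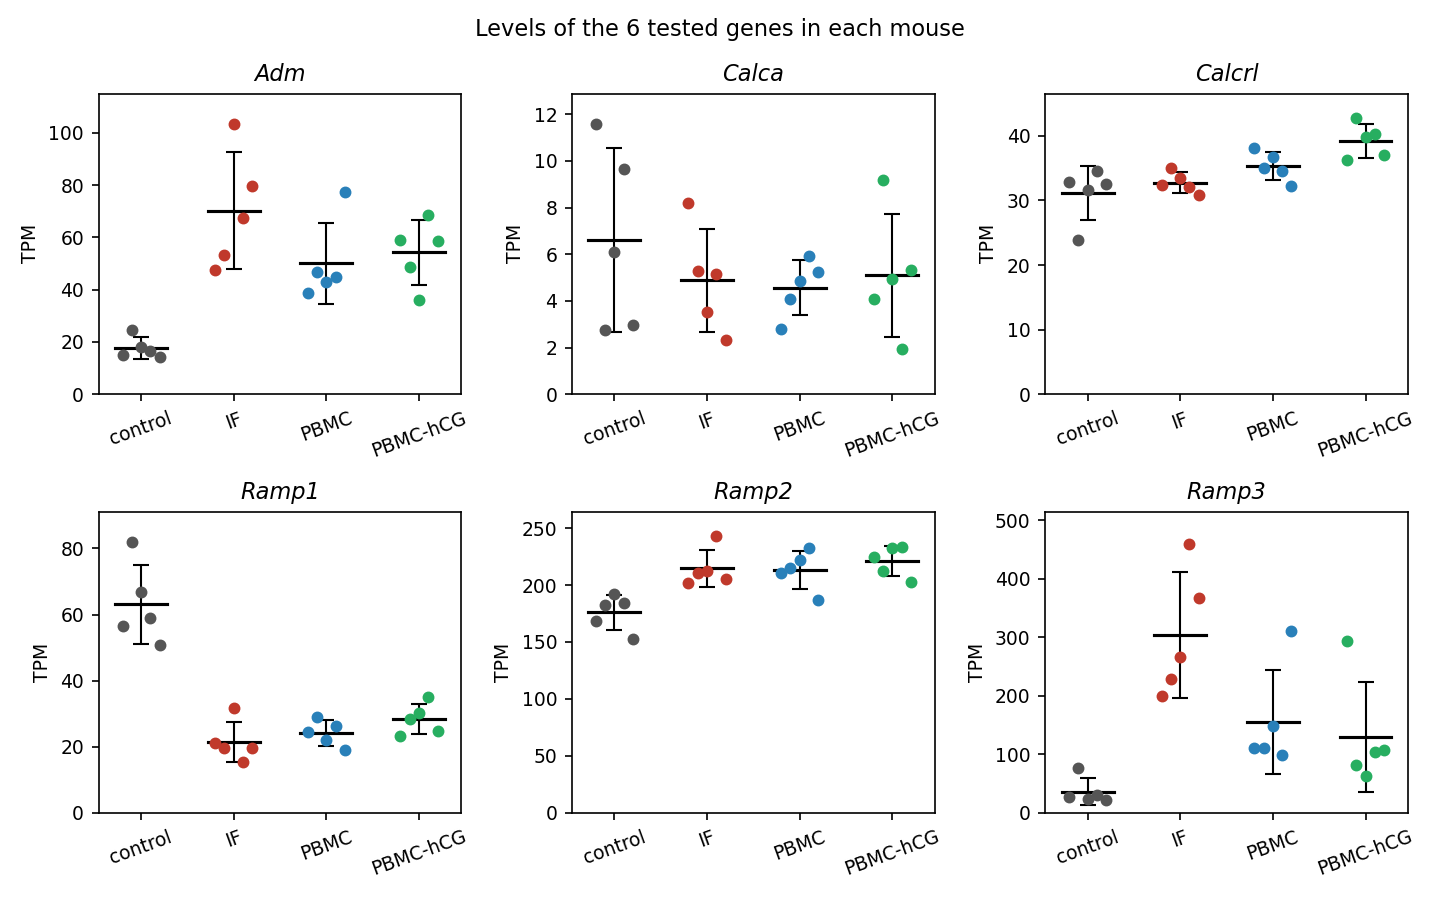
TPM (linear axis from 0) of the 6 tested genes in each of the 20 mice, by group, with 1 point per mouse, a bar at the mean and error bars of 1 SD (n = 5). Ramp3 and Adm in IF mice sit above every control mouse and Ramp1 below every control mouse, while single PBMC and PBMC-hCG mice reach 310.9 and 293.8 TPM of Ramp3.

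Calcrl, at chr2:84330626-84425405 on the minus strand, encodes the receptor that the RAMPs partner. Control mice had 32.9, 23.8, 31.7, 34.6 and 32.5 TPM, and IF mice had 32.4, 35.0, 33.5, 32.0 and 30.8 TPM. PBMC mice had 38.1, 35.0, 36.7, 34.6 and 32.3 TPM. PBMC-hCG mice had 36.2, 42.7, 39.8, 40.4 and 37.1 TPM. The control and IF ranges overlapped, and the lowest PBMC-hCG mouse lay above the highest IF mouse and the highest control mouse. The IF against control difference was 0.09 on the log2 scale with a 95% interval of -0.09 to 0.26 (adjusted p = 0.507 by limma), and -0.01 without control mouse 2. In PBMC-hCG mice Calcrl was 1.20-fold higher than in IF mice (log2 fold change 0.26, SE 0.08, adjusted p = 0.0459 by limma). That call was lost in 8 of 10 fits with 1 mouse left out, with no filter on low values (adjusted p = 0.0696 by limma) and with the replicate block (adjusted p = 0.0541). Against control mice Calcrl was 1.27-fold higher (log2 fold change 0.34, adjusted p = 0.00398 by limma). Without control mouse 2, which was the lowest of its group, this value was 0.25 (adjusted p = 0.00277 by limma).

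Calcr, the calcitonin receptor gene, which with RAMPs forms amylin receptors, was above 0 in 3 of 20 libraries. Its highest value was 0.0334 TPM in PBMC mouse 4, and it was listed at 0 in every control and PBMC-hCG mouse.

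Ramp1 fell after RU486. Control mice had 56.6, 82.0, 66.8, 59.0 and 50.8 TPM. IF mice had 21.1, 19.6, 31.7, 15.3 and 19.7 TPM. No IF mouse reached the lowest control mouse, and the mean went from 63.0 ± 12.1 TPM to 21.5 ± 6.12 TPM (log2 fold change -1.57, SE 0.17, adjusted p = 3.07e-06 by limma). Without control mouse 2, its highest, the change was -1.47.

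Ramp1 stayed low in the mice given cells. PBMC mice had 24.3, 29.1, 22.1, 26.4 and 18.9 TPM. PBMC-hCG mice had 23.3, 28.4, 30.3, 35.1 and 24.8 TPM. Both ranges overlapped the IF range and lay wholly below the control range, at 2.60-fold and 2.21-fold lower than control (adjusted p = 1.64e-05 and 7.71e-05 by limma). Against IF, PBMC-hCG mice differed by 0.43 on the log2 scale (95% interval 0.07 to 0.78), which was not called (adjusted p = 0.0864 by limma). It was called only when IF mouse 3, the highest IF mouse at 31.7 TPM, was left out (0.58, adjusted p = 0.0146 by limma).

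Ramp2, at chr11:101246334-101248250 on the plus strand, was the most abundant RAMP transcript in control mice. They had 168.5, 182.4, 191.8, 184.6 and 152.9 TPM. IF mice had 201.6, 210.3, 212.2, 243.1 and 205.5 TPM. The groups did not overlap, but the difference was small, 0.29 on the log2 scale with an SE of 0.07 (adjusted p = 0.00658 by limma), and 0.30 without control mouse 2. PBMC mice had 210.2, 215.2, 221.6, 232.2 and 186.5 TPM, and PBMC-hCG mice had 224.4, 211.9, 232.5, 233.6 and 202.7 TPM. Both stayed in the IF range or near it, with differences from IF of -0.01 and 0.04 on the log2 scale (adjusted p = 0.986 and 0.690 by limma). The annotation places Vps25 over the same strand of the longer Ramp2 gene model, so reads shared between these gene models are uncertain.

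Ramp3 showed the largest change of the 6 tested genes. Control mice had 26.9, 77.0, 23.4, 29.8 and 21.6 TPM. IF mice had 199.8, 228.9, 265.8, 459.9 and 367.5 TPM. Even the highest control mouse, mouse 2, lay below the lowest IF mouse, and the means were 35.7 ± 23.3 and 304 ± 108 TPM. The log2 fold change was 3.20 with an SE of 0.41 and a 95% interval of 2.34 to 4.06 (adjusted p = 2.08e-05 by limma). Without control mouse 2 it was 3.52. A processed pseudogene, Gm11978, lies on the opposite strand over 1713 bases of the Ramp3 locus.

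In the mice given cells, Ramp3 lay between the control and IF levels in most animals, with 1 mouse in each group near the IF level. PBMC mice had 110.2, 110.8, 148.9, 98.1 and 310.9 TPM, a mean of 156 ± 88.8 TPM. PBMC-hCG mice had 293.8, 81.0, 62.3, 104.0 and 107.7 TPM, a mean of 130 ± 93.5 TPM. Of the PBMC mice, 4 lay below the lowest IF mouse and mouse 5 lay within the IF range. Of the PBMC-hCG mice, likewise 4 lay below the lowest IF mouse and mouse 1 lay within the IF range, while mouse 3 also fell below control mouse 2. Both groups were still called above control, by 2.16 (adjusted p = 0.00102) and 1.81 (adjusted p = 0.00276) on the log2 scale by limma.

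The PBMC comparison with IF asks what cells cultured without hCG add to RU486, and no family gene was called in it. By limma 0 of 6 were called, as were 0% of all tested genes, while 2 of the 6, Adm and Ramp3, had a raw p under 0.05, as had 1271 of the 18706 genes. Ramp3 was 2.06-fold lower (log2 fold change -1.04, SE 0.41, 95% interval -1.90 to -0.18, adjusted p = 0.701 by limma). It was the 1 gene of the 6 past the fold rule, which 0.438% of all tested genes passed. It no longer passed the rule without IF mouse 4 or 5 (-0.88 and -0.96) or PBMC mouse 1, 2 or 4 (-0.95, -0.96 and -0.91). Without PBMC mouse 5 the fall was larger, -1.33 (adjusted p = 0.211 by limma).

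The PBMC-hCG comparison with IF, which shares the IF mice with the comparison above, called 2 of the 6 genes, Ramp3 lower and Calcrl higher. In it 13.6% of all tested genes were called, and by the fold rule 2.31% passed, against 1 of the 6, Ramp3. Ramp3 was 2.62-fold lower (log2 fold change -1.39, SE 0.41, 95% interval -2.25 to -0.53, adjusted p = 0.0385 by limma). Both calls lay near the threshold. With 1 mouse left out at a time, Ramp3 was called in 3 of 10 fits and Calcrl in 2 of 10, with Ramp3 between -1.74 and -1.18 and Calcrl between 0.23 and 0.29 on the log2 scale. Ramp3 lost its call without IF mouse 2, 4 or 5 (-1.48, -1.22 and -1.30, adjusted p from 0.0638 to 0.117 by limma) and without PBMC-hCG mouse 2, 3, 4 or 5 (-1.28, -1.18, -1.37 and -1.38, adjusted p from 0.0711 to 0.102). Calcrl lost its call in the same fits and also without IF mouse 1 (0.25, adjusted p = 0.0630 by limma). In those 7 shared fits between 0 and 34 of the 18706 genes were called at all, against 2334 to 5061 in the other 3. Without PBMC-hCG mouse 1, the mouse with 293.8 TPM of Ramp3, the Ramp3 change was -1.74 (adjusted p = 0.00925 by limma).

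**Figure D2:**
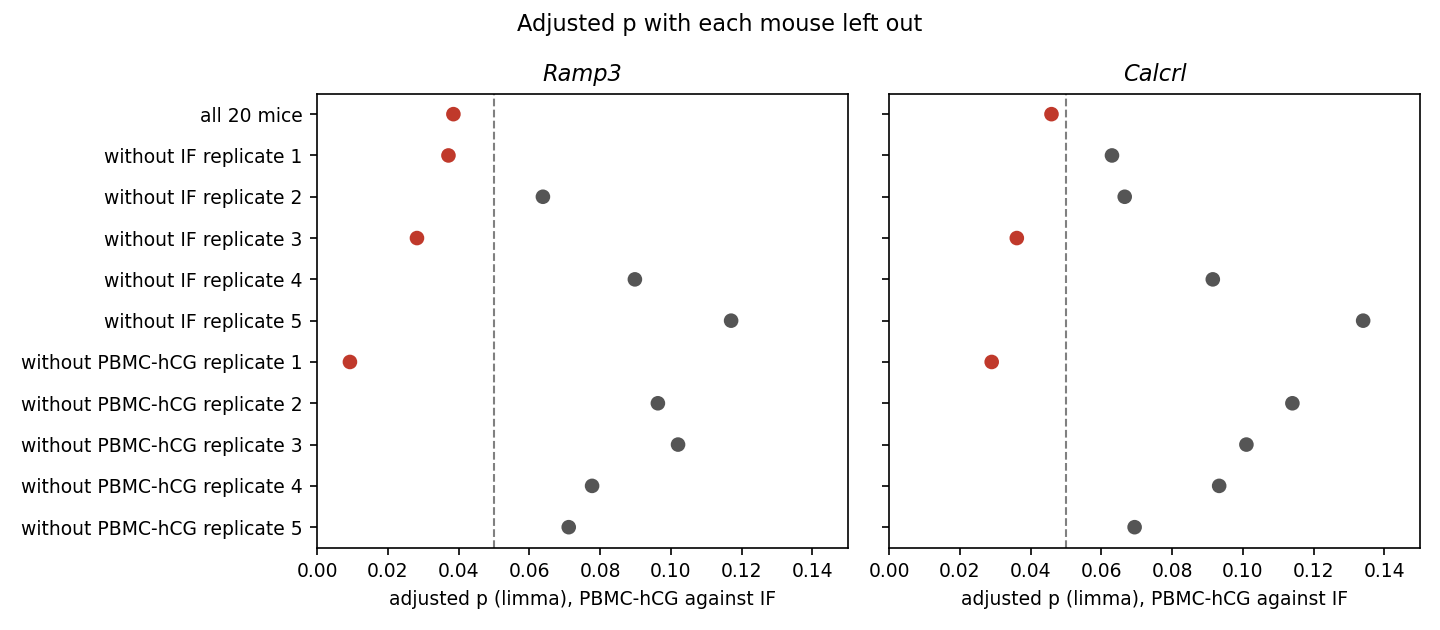
Adjusted p by limma (linear axis) of Ramp3 and Calcrl in PBMC-hCG against IF with all 20 mice and with each of the 10 mice of these groups left out in turn. Red points lie under the dashed line at 0.05, which is met by Ramp3 in 3 and by Calcrl in 2 of the 10 reduced fits.

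Setting PBMC-hCG directly against PBMC, the test of hCG in the culture, called 0 of the 6 genes by limma, and 0 of the 6 had a raw p under 0.05. Of all 18706 genes, 0.0107% were called and 3024 had a raw p under 0.05, and by the fold rule 0.893% passed, with none of the 6 among them. The Ramp3 difference was -0.35 on the log2 scale (95% interval -1.21 to 0.51, adjusted p = 0.660 by limma). It moved to -0.70 (adjusted p = 0.257 by limma) without PBMC-hCG mouse 1 and to -0.06 (adjusted p = 0.968) without PBMC mouse 5. The Calcrl difference was 0.15 (95% interval -0.02 to 0.32, adjusted p = 0.349 by limma), and the Ramp1 difference was 0.23 (95% interval -0.12 to 0.59, adjusted p = 0.460). These intervals do not show that the 2 cell preparations acted alike on the family.

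Against control, which shows how far each treated group stood from untreated pregnancy, PBMC called 4 of the 6 genes, where 19.5% of all tested genes were called, and 3 by the fold rule, where 3.34% passed. PBMC-hCG called 5 of the 6, where 31.8% were called, and 3 by the fold rule, where 4.74% passed. The fifth gene was Calcrl. These comparisons share the control mice with IF against control, so their calls are not separate evidence. Side by side, the Ramp3 log2 difference from control was 3.20 in IF, 2.16 in PBMC and 1.81 in PBMC-hCG, and without control mouse 2 it was 3.52, 2.48 and 2.13. The Adm values were 1.95, 1.48 and 1.61, and those of Ramp1 were -1.57, -1.38 and -1.14.

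**Figure D3:**
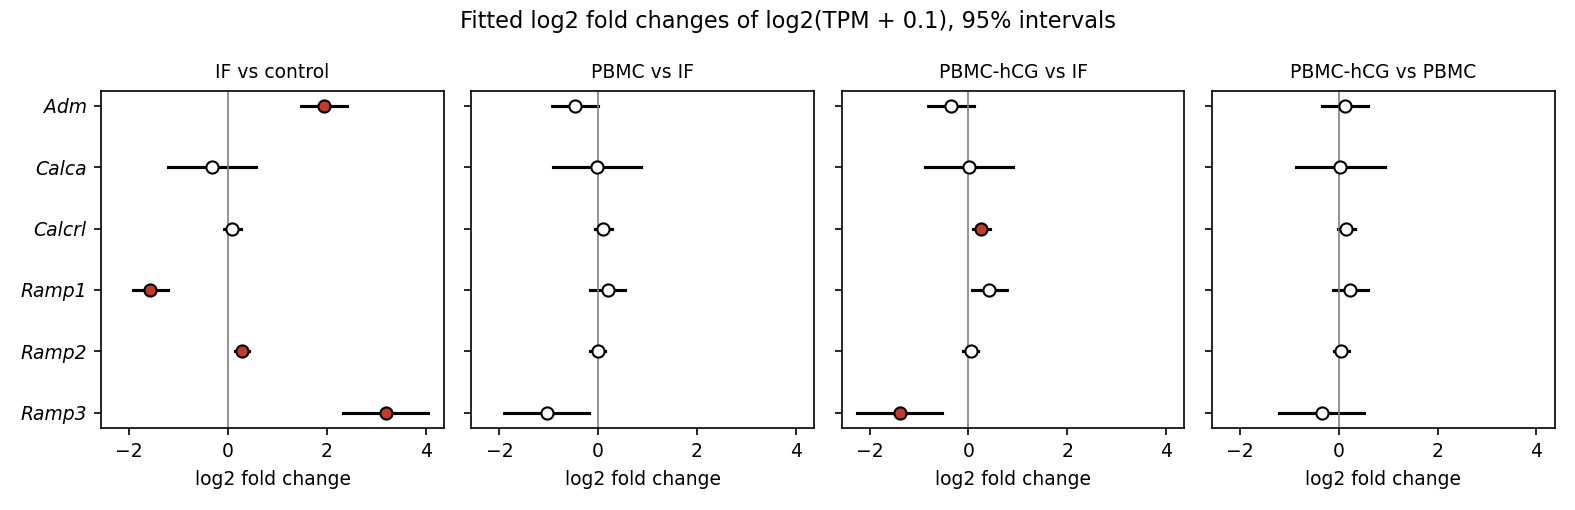
Fitted log2 fold changes of log2(TPM + 0.1) for the 6 tested genes in 4 comparisons, with 95% intervals from limma on a shared linear axis. Red points have an adjusted p under 0.05. There are 4 such genes in IF vs control, none in PBMC vs IF, 2 in PBMC-hCG vs IF and none in PBMC-hCG vs PBMC.

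Since the RAMP partner sets which peptide the receptor binds, the make-up of the RAMP transcripts was computed in each mouse as a share of the summed TPM of the 3 genes. It follows from the levels above and was not tested. Ramp1 made up 22.9% ± 0.995 of the sum in control mice and 4.19% ± 1.56 in IF mice. Ramp2 went from 64.7% ± 6.34 to 40.7% ± 6.33, although its own level rose. Ramp3 went from 12.4% ± 5.77, with control mouse 2 at 22.6%, to 55.1% ± 7.48. Ramp3 exceeded Ramp1 in 0 of 5 control mice and in all 15 mice given RU486, and it exceeded Ramp2 in 4 of 5 IF mice but in 0 of 5 control mice.

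The PBMC and PBMC-hCG mice stood between. The Ramp3 share was 37.8% ± 13.1 in PBMC mice, from 27.5% to 60.2%, and 31.7% ± 13.4 in PBMC-hCG mice, from 19.2% to 54.3%. The upper ends were PBMC mouse 5 and PBMC-hCG mouse 1. Ramp1 remained at 6.39% ± 1.78 and 7.86% ± 2.14, below every control mouse. The mean ratio of Ramp3 to Ramp1 was 0.539 in control, 15.6 in IF, 7.05 in PBMC and 4.96 in PBMC-hCG mice. Single mice carried much of the last 2 means, which were 4.69 without PBMC mouse 5 and 3.05 without PBMC-hCG mouse 1. The summed RAMP level rose from 275 ± 43.2 TPM in control to 540 ± 118 TPM in IF, and was 393 ± 71.2 TPM in PBMC and 379 ± 93.0 TPM in PBMC-hCG mice. Per unit of Calcrl TPM, this sum was 9.14 ± 2.98 in control, 16.6 ± 4.12 in IF, 11.2 ± 2.73 in PBMC and 9.78 ± 2.97 in PBMC-hCG mice, so RAMP transcripts outnumbered those of the receptor in every group. Without control mouse 2, at 14.3, the control value was 7.85 ± 0.820.

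**Figure D4:**
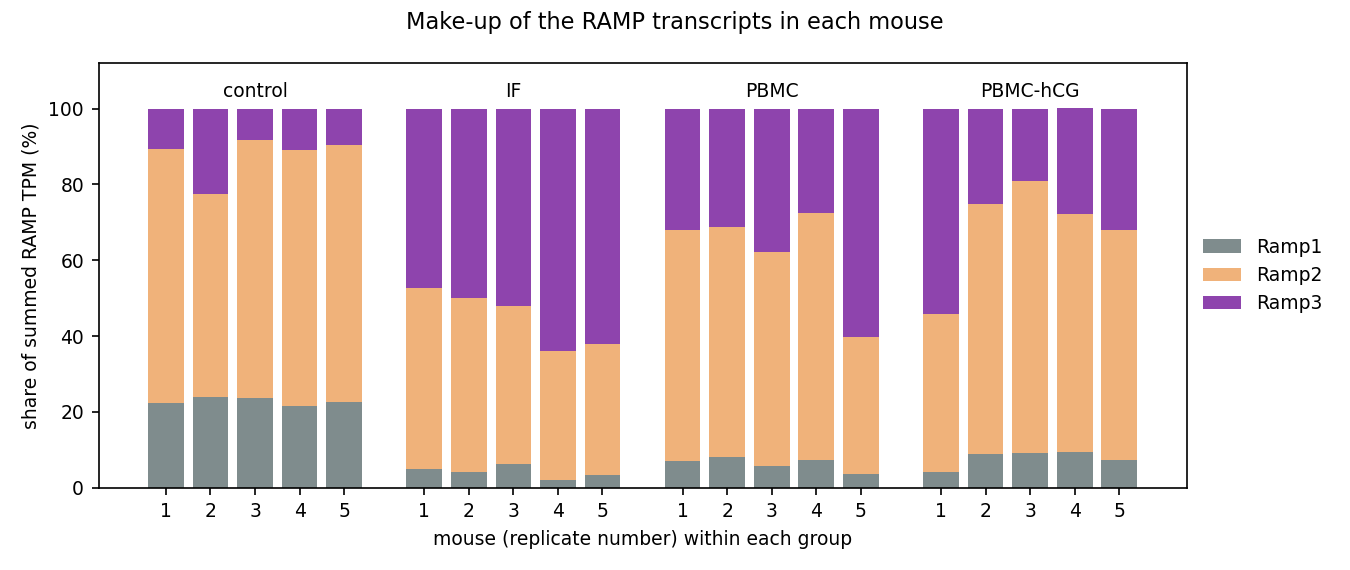
Share (%) of Ramp1, Ramp2 and Ramp3 in their summed TPM, with 1 stacked bar per mouse, in the 4 groups. The Ramp3 share is 22.6% or less in control mice and between 47.3% and 64.0% in IF mice. In PBMC mouse 5 it is 60.2% and in PBMC-hCG mouse 1 it is 54.3%, apart from the other mice of their groups.

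The order of the mean levels differed between control and IF. In control mice it was Ramp2 (176 TPM), Ramp1 (63.0), Ramp3 (35.7), Calcrl (31.1), Adm (17.7) and Calca (6.62), and the ranges overlapped between the neighbours Ramp1 and Ramp3, Ramp3 and Calcrl, and Calcrl and Adm. Ramp3 ranked above Calcrl through control mouse 2, without which their means were 25.4 and 32.9 TPM. In IF mice it was Ramp3 (304 TPM), Ramp2 (214.5), Adm (70.2), Calcrl (32.8), Ramp1 (21.5) and Calca (4.89), and the ranges overlapped between Ramp3 and Ramp2 and between Calcrl and Ramp1. Adm exceeded Calcrl in 1 of 5 control mice, mouse 2, and in 5 of 5 IF mice.

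Because these genes mark particular cells in part, marker lists were read beside them. Among 12 endothelial markers, 10 were called higher and 0 lower in IF against control, where 21.9% of all tested genes were called. Their median log2 fold change was 0.38 against 0.02 for all tested genes, and their summed level ran from 701 to 918 TPM in control and from 1107 to 1146 TPM in IF mice. Calcrl and Ramp2, which endothelium is known to express, differed by 0.09 and 0.29 in the same comparison. Of 6 lymphatic markers 4 were higher, of 8 stromal markers 4 were higher, and of 10 tested leukocyte markers 2 were higher, a share below the 21.9% of all tested genes, none of them at 0 throughout a group. Epithelial markers gave 6 higher and 1 lower of 8, and this count of 7 fell to 4 without any 1 of control mice 1, 3, 4 or 5 or IF mice 3 or 4. Smooth muscle markers gave 1 lower of 8, which became 3 without control mouse 2, 2 without IF mouse 4 and 0 without any 1 of control mice 3 to 5 or IF mice 1, 2, 3 or 5. With only the control and IF groups fitted, the counts were 6 for endothelium, 2 for lymphatic endothelium, 3 for epithelium, 4 for stroma, 1 for leukocytes and 0 for smooth muscle. That fit called 13.2% of all tested genes. The epithelial count was also 3 with quantile normalization, where 22.7% of all tested genes were called. The leukocyte count was 0 without control mouse 2 or 4 or IF mouse 5 and 1 without control mouse 3 or 5 or IF mouse 2 or 3. The fits with 1 mouse left out called between 17.8% and 26.8% of all tested genes, the most without control mouse 2.

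Stromal markers summed to 5214 TPM in control mouse 2, the lowest of its group, whose highest was 9230 TPM, and to 9307 to 10940 TPM in IF mice. The sums of the other lists overlapped between control and IF mice. They were 805 to 1424 and 1122 to 1426 TPM for epithelium, and 376 to 576 and 400 to 578 TPM for lymphatic endothelium. For leukocytes they were 658 to 853 and 640 to 894 TPM, and for smooth muscle 6250 to 11530 and 6298 to 7765 TPM. Between PBMC-hCG and IF, at most 1 marker of a list was called in either direction, with endothelium at 1 higher and 1 lower of 12. In this comparison 13.6% of all tested genes were called. With 1 mouse left out the number of markers called per list ran from 0 to 3, in fits that called 0% to 27.1% of all tested genes. With only these 2 groups fitted, 5 epithelial and 2 smooth muscle markers were called, where 13.2% of all tested genes were. With quantile normalization 3 epithelial markers were called, where 14.6% of all tested genes were. The part of cell make-up in the results for the family was not tested.

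For each family gene called in IF against control, the genes whose z-scored levels lay closest over the 20 mice were found among 15770 tested genes of at least 1 TPM on average. The measure is a root mean square distance, which is small for any gene that shares the group differences, and it is a description. Closest to Ramp3 were Ddhd1 (0.184), Arl4c (0.210) and Oxtr (0.222), where the median gene lay at 1.40. Oxtr, the oxytocin receptor gene, averaged 9.83 TPM in control, 149.0 in IF, 73.8 in PBMC and 38.4 in PBMC-hCG mice. Closest to Ramp1 were Sult1a1 (0.255), Ccbe1 (0.277) and Zbtb16 (0.280), the last of which averaged 36.2 TPM in control and 2.42 TPM in IF mice.

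Closest to Adm were Zfp36l2 (0.302), Akr1c14 (0.309) and Fndc3a (0.317), and within the family Ramp3 was nearest to it at 0.444. Akr1c14, a steroid-metabolizing reductase gene, averaged 27.1 TPM in control and 134.5 TPM in IF mice. Ramp2 had no neighbour closer than Thsd1 (0.400), Col4a4 (0.430) and Extl3 (0.463).

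The peptides need processing before and clearance after they act. Among 15 tested genes of processing and clearance, 6 were called higher and 2 lower in IF against control, where 21.9% of all tested genes were called, with a median log2 fold change of 0.13 against 0.02 for all tested genes. Ackr3, a scavenger receptor that takes up adrenomedullin, had 49.8, 49.1, 39.8, 44.7 and 41.8 TPM in control and 148.4, 118.9, 125.2, 124.9 and 205.1 TPM in IF mice. The ranges did not overlap, and the log2 fold change was 1.65 with an SE of 0.24 (adjusted p = 7.40e-05 by limma). PBMC mice had 88.6, 88.1, 165.6, 100.6 and 214.1 TPM and PBMC-hCG mice had 120.9, 63.4, 60.1, 66.8 and 54.6 TPM.

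The highest PBMC mouse for Ackr3 was mouse 5 and the highest PBMC-hCG mouse was mouse 1, the same mice that were highest for Ramp3. Against IF, Ackr3 was lower in PBMC-hCG mice (log2 fold change -1.01, SE 0.24, adjusted p = 0.0287 by limma) and differed by -0.20 in PBMC mice (adjusted p = 0.878). The PBMC-hCG call was lost in 7 of 10 fits that left out 1 mouse, namely IF mouse 2, 4 or 5 or PBMC-hCG mouse 2, 3, 4 or 5, where it lay between -1.08 and -0.88 (adjusted p from 0.0545 to 0.0989 by limma). Pcsk5, a proprotein convertase gene, fell from 78.5 TPM in control to 19.8 TPM in IF mice (log2 fold change -1.97, SE 0.26, adjusted p = 2.69e-05 by limma). It was 16.4 TPM in PBMC mice and between 13.0 and 19.4 TPM in PBMC-hCG mice.

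**Figure D5:**
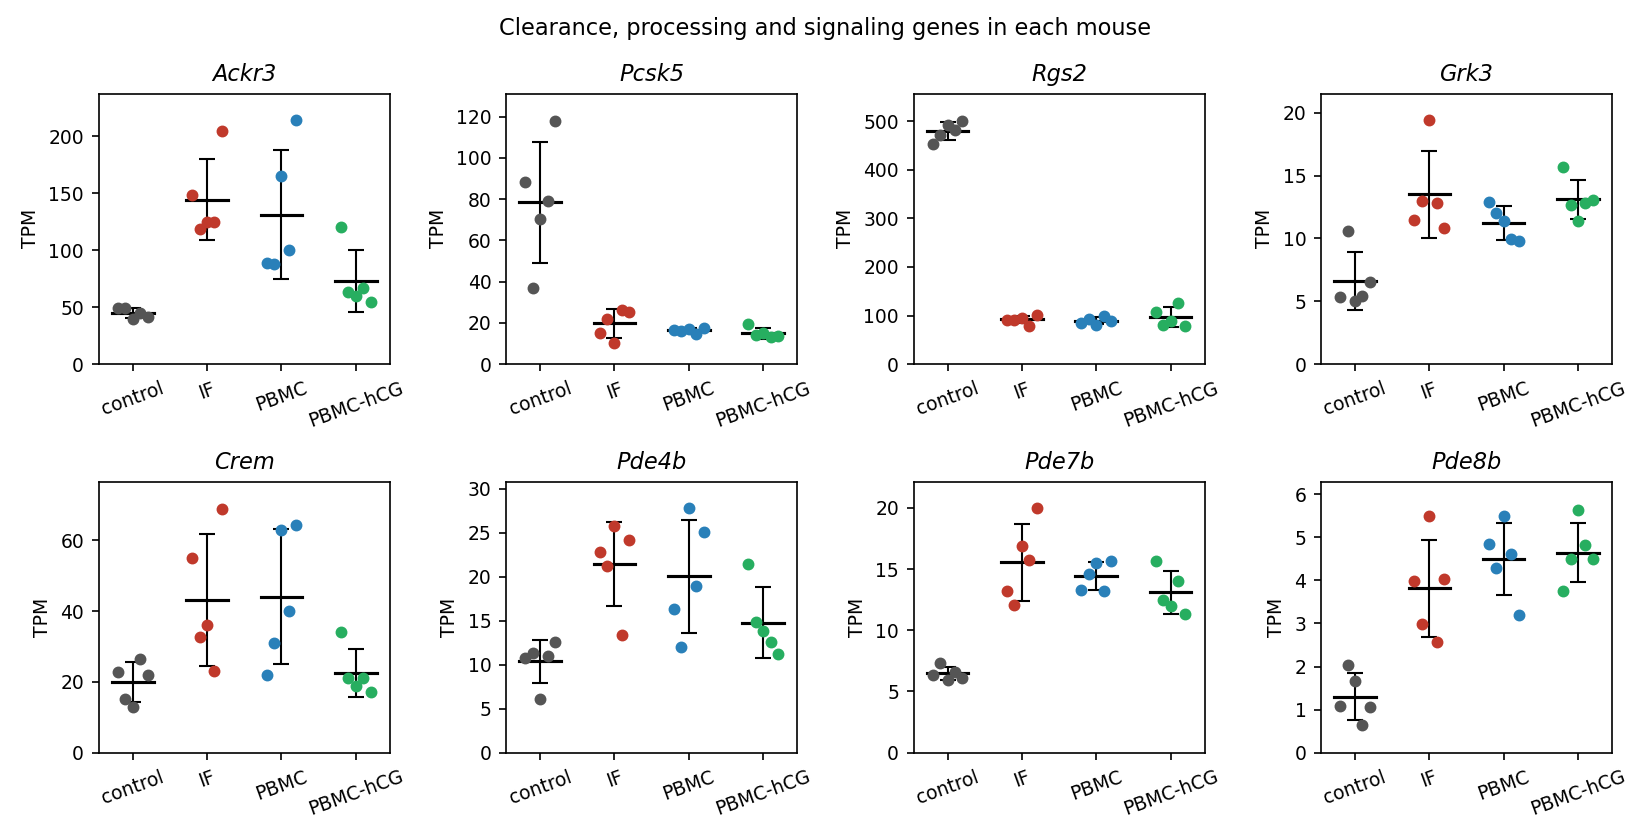
TPM (linear axes from 0) of 8 genes of peptide clearance, processing and receptor signaling in each of the 20 mice, with 1 point per mouse, a bar at the mean and error bars of 1 SD (n = 5). Rgs2 and Pcsk5 sit below the control range in all RU486-treated groups, while Ackr3 in PBMC-hCG mice lies at 54.6 to 66.8 TPM except for mouse 1 at 120.9 TPM.

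Among 11 tested genes listed for regulation of receptors or of G protein signaling, 4 were called higher and 1 lower in IF against control (median log2 fold change 0.08). In this comparison 21.9% of all tested genes were called. The 1 that fell was Rgs2, which encodes a regulator of G protein signaling. It went from 480 ± 18.6 TPM in control to 92.0 ± 8.13 TPM in IF mice (log2 fold change -2.38, SE 0.10, adjusted p = 2.97e-11 by limma) and was 89.6 TPM in PBMC and 96.4 TPM in PBMC-hCG mice. Grk3, a receptor kinase gene, rose from 6.58 to 13.5 TPM (log2 fold change 1.05, adjusted p = 0.000357 by limma).

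The receptor complexes signal mainly through Gs and cyclic AMP. Among 31 tested genes of this route, 12 were called higher and 3 lower in IF against control (median log2 fold change 0.15), where 21.9% of all tested genes were called. The 4 past the fold rule and called were the phosphodiesterase genes Pde4b, Pde7b and Pde8b, whose products break down cyclic AMP, and Crem, a transcription factor gene that cyclic AMP induces. Pde8b rose from 1.30 to 3.82 TPM (log2 fold change 1.53, adjusted p = 0.000182 by limma), and Pde7b rose from 6.47 to 15.6 TPM (log2 fold change 1.23, adjusted p = 1.09e-06). Pde4b rose from 10.4 to 21.4 TPM (log2 fold change 1.05, adjusted p = 0.00417 by limma). Crem rose from 19.9 to 43.2 TPM (log2 fold change 1.06, adjusted p = 0.0218 by limma), a call lost without control mouse 3 (0.91) or IF mouse 1 or 5 (0.94 and 0.86).

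Crem was 44.2 TPM in PBMC and 22.5 TPM in PBMC-hCG mice. Its PBMC-hCG difference from IF, -0.88 on the log2 scale, was not called (adjusted p = 0.0651 by limma) and was called without PBMC-hCG mouse 1 (-1.04, adjusted p = 0.0327). In PBMC-hCG against IF the 3 lists gave 3 higher and 2 lower of 15, 1 higher and 0 lower of 11, and 3 higher and 1 lower of 31, or 5, 1 and 4 in all, where 13.6% of all tested genes were called, a share above those of the last 2 lists. With no filter on low values they were 1, 0 and 1, in a fit that called 2.65% of all its genes. These counts were 0 without any 1 of IF mice 2, 4 or 5 or PBMC-hCG mice 2 to 5, in fits that called at most 34 of all 18706 genes. Without IF mouse 3 they were 7, 3 and 6, in a fit that called 27.1% of all tested genes. In PBMC against IF limma called 0 genes of each list and 0% of all tested genes. A raw p under 0.05 was held by 2, 0 and 3 genes of the lists, and by 1271 of all 18706 tested genes. Of 10 other receptors known to pair with RAMPs, 5 were tested. By limma 0 of them were called in IF against control, PBMC against IF or PBMC-hCG against IF. A raw p under 0.05 was held by 1, 0 and 3 of them, and by 6334, 1271 and 6547 of all 18706 tested genes. In the last comparison 2 were called without IF mouse 3, in the fit that called 27.1% of all tested genes.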

How the data were processed

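The authors sequenced poly(A) RNA of whole uterine tissue from 20 mice, with stranded mRNA libraries, and processed the reads with Trimmomatic, HISAT2 on mm10 and StringTie, per the labels. They deposited TPM per gene, 1 column per mouse, as used here. Read counts are not in the table used, so the sequencing depth behind each value is unknown and no counting interval is given. Columns summed to 999989 to 999999 TPM, 22702 to 24097 genes were above 0, and no columns were identical. Groups and replicate numbers came from the sample labels, with 5 mice per group. The labels number the samples without saying more of their origin. The p-values set group differences against the spread between samples within groups, pooled over all 4 groups.

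Values were taken as log2(TPM + 0.1) for the 18706 genes above 0 TPM in all 20 libraries. All 4 groups entered 1 limma model (limma 3.58.1, R 4.3.3) whose variance prior followed the mean level, and the Benjamini-Hochberg adjustment ran over all tested genes. The authors' exact test needs counts and was replaced for that reason. On simulated data for IF against control with 18706 genes, 170 of 200 changed genes were recovered with 10 false calls. The simulated noise was independent between genes and held no outlying mouse, so these rates need not hold for the real data. The family members and the gene lists (peptide processing and clearance, receptor regulation, Gs and cyclic AMP, other RAMP partners, and markers of endothelium, lymphatic endothelium, smooth muscle, epithelium, stroma, nerve and blood leukocytes) were chosen with earlier results of these data known. All 9 members are named. From each pathway list, up to 4 genes of at least 1 TPM on average were named where called and past the fold rule in IF against control or PBMC-hCG against IF, and for each member called in IF against control the 3 nearest genes. Of 12 genes listed under receptor regulation 11 were in the table. Alternatives changed the pseudocount, filter, scaling, samples fitted and replicate block, and left out each mouse in turn. Sequences and coordinates are from RefSeq and GENCODE on GRCm38.p6.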

Additional observations from a re-analysis of the deposited data

Results flagged for a closer look

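Within groups of 5 mice, the gap of the highest or lowest mouse to its neighbour was set against the range of the group, and 10 of 33 combinations of gene and group exceeded the critical ratio of 0.71 (Dixon's test). For normally distributed values chance alone picks out about 1 in 20 groups. Where 1 mouse alone was above 0, the ratio was 1 whatever its value, as for Adm2 and Calcr in PBMC mice and Calcb in IF mice. The count of flags can therefore not be set against that rate. Ramp3 stood out in 3 groups, with control mouse 2 at 77.0 TPM, PBMC mouse 5 at 310.9 TPM and PBMC-hCG mouse 1 at 293.8 TPM, each the highest of its group. Adm stood out in PBMC mouse 5 at 77.3 TPM, the same mouse as for Ramp3. Calcrl stood out in control mouse 2 as the lowest of its group at 23.8 TPM, and Ramp2 in IF mouse 4 as the highest at 243.1 TPM. The rest were genes close to 0 TPM. Adm2 was at 0.567 TPM in IF mouse 5 and at 0.285 TPM in PBMC mouse 4, Calcb at 0.0536 TPM in IF mouse 1 and Calcr at 0.0334 TPM in PBMC mouse 4. The causes were not tested.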

How the results depend on the processing

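Of 612 recomputed values of single family genes, 574 kept their direction and their side of the threshold, 18 fell out of the calls, 1 gained a call and 19 turned direction, of which 0 were called by limma. The turned values lay in 5 of 36 combinations of gene and comparison, all with a difference close to 0. With quantile normalization they were 0.0117 for Ramp2 in PBMC against IF, and -0.11 and -0.0221 for Calca in PBMC-hCG against IF and against PBMC. With 1 mouse left out, Calcrl in IF against control ranged from -0.00731 to 0.13, Ramp2 in PBMC against IF from -0.0417 to 0.0373, and Calca from -0.25 to 0.19 in PBMC against IF, from -0.24 to 0.31 in PBMC-hCG against IF and from -0.21 to 0.33 in PBMC-hCG against PBMC. The changed calls lay in 3 combinations, Ramp3, Calcrl and Ramp1 in PBMC-hCG against IF. There, the 2 genes called became 0 with no filter on low values (adjusted p by limma of 0.0644 for Ramp3 and 0.0696 for Calcrl, with 30695 genes tested), 1 with the replicate block (Calcrl at 0.0541, Ramp3 still called) and 0 to 3 with 1 mouse left out. In PBMC against IF, the 1 gene past the fold rule became 0 to 1 with 1 mouse left out. The causes were not tested. Same-numbered mice of 2 groups had residual correlations between -0.247 and 0.457. Differently numbered mice were not correlated for comparison, so whether the numbers pair the mice or mark a batch was not tested. The replicate block changed no other count of family genes, but over all genes it raised the calls in PBMC-hCG against IF from 2544 to 3215. Over all genes, calls in IF against control fell from 4104 to 2473 when only these 2 groups were fitted, and calls in PBMC-hCG against IF fell from 2544 to 812 with no filter and ranged from 0 to 5061 with 1 mouse left out. Quantile normalization moved the higher calls from 2509 of 4104 to 2161 of 4254 in IF against control, from 2400 of 3653 to 1991 of 3718 in PBMC against control and from 3772 of 5941 to 3208 of 6008 in PBMC-hCG against control. The pathway and marker lists were recomputed under the same settings after seeing the data. Among their named genes, the uncalled differences that turned direction with 1 mouse left out were, in PBMC against IF, Crem (-0.18 to 0.24), Pde4b (-0.29 to 0.0412), Rgs2 (-0.0888 to 0.000126) and Pde7b (-0.18 to 0.00705), in PBMC-hCG against IF, Rgs2 (-0.0575 to 0.11) and Grk3 (-0.0891 to 0.12), and in PBMC-hCG against PBMC, Rgs2 (-0.0200 to 0.15) and Pde8b (-0.0555 to 0.13, and -0.0020 with quantile normalization). Without knowledge of the depth, the precision of the genes near 0 TPM is not known.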
